A study of Mus musculus with 20 samples.

Results

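The genes of MHC class I antigen presentation were followed across the cell classes of mouse interscapular brown adipose tissue (iBAT). They were 10 of the 31053 genes in the deposited tables, taken by symbol: the class I heavy chains H2-K1, H2-D1, H2-Q4, H2-Q6, H2-Q7 and H2-T23, the light chain B2m, the peptide transporter subunits Tap1 and Tap2, and the transcriptional coactivator Nlrc5. The 20 single-cell RNA-seq libraries came from 10 experiments, in each of which magnetic beads had split the stromal vascular cells into those bound by antibodies to blood lineage markers (Lin+) and those left unbound (Lin-). Male C57BL/6J mice stayed at 24 °C (room temperature, RT), spent 4 days at 6 °C (COLD) or received the β3 adrenergic agonist CL316,243 (CL) by osmotic pump for 4 days at 0.75 nmol per hour, and each of these groups had 2 experiments. Female mice of an Adrb1 line were wild type (WT, Adrb1 fl/fl; Pdgfra-CreER -/-) or knockout (KO, Adrb1 fl/fl; Pdgfra-CreER +/-, the CreERT2 form in the study's methods), both given tamoxifen, and were studied at RT and in the cold with 1 experiment each. The deletion is therefore limited to cells in which Pdgfra drives the Cre, and both genotypes carry floxed Adrb1. All mice were 8 to 14 weeks old, and each library pooled 3 to 4 of them, so the pool was the unit of replication.

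Class I molecules display short peptides from inside the cell to CD8 T cells and natural killer cells. Peptides cut by the proteasome are moved into the endoplasmic reticulum by the transporter that TAP1 and TAP2 form, and are loaded there onto a heavy chain paired with β2-microglobulin, the product of B2m. H2-K1 and H2-D1 encode the classical heavy chains. H2-Q4, H2-Q6 and H2-Q7 encode heavy chains of the Qa region, and H2-T23 encodes Qa-1, which shows peptides to inhibitory receptors of natural killer cells. NLRC5 acts at the promoters of class I genes, and the whole system is known to respond to interferons. Adipose stromal cells (ASC) are the mesenchymal cells of the tissue's stromal vascular fraction, among them the precursors of adipocytes.

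In GRCm38, 8 members lie in the histocompatibility region of chromosome 17: H2-K1 (33996017 to 34000347, minus strand), Tap1 (34187553 to 34197225, plus), Tap2 (34203527 to 34216321, plus), H2-D1 (35262730 to 35267499, plus), H2-Q4 (35379617 to 35385290, plus), H2-Q6 (35424850 to 35430055, plus), H2-Q7 (35439155 to 35443773, plus) and H2-T23 (36029773 to 36032855, minus). B2m lies on chromosome 2 (122147686 to 122153083, plus) and Nlrc5 on chromosome 8 (94434356 to 94527272, plus). H2-Q6 and H2-Q7 are close copies. Of the windows of 58 bases in the last 400 bases of the H2-Q6 transcripts, 46.9% also occur in another gene, H2-Q7 first among them, against 32.4% for H2-Q4, 29.7% for H2-T23 and at most 6.20% for the other members, so the split of reads between H2-Q6 and its neighbours is uncertain.

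Promoter sequence (250 bases before the start, RefSeq, GRCm38.p6) was found for 8 members, all but Tap2 and Nlrc5. The stretches below are shown because they carry the matches to motifs that interferon-activated and NF-κB factors are known to bind. Capitals mark the matched letters, and each stretch is written 5′ to 3′ on the strand given.
H2-K1 (chr17:34000418-34000468, minus): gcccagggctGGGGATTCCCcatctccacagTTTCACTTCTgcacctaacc
H2-D1 (chr17:35262913-35262963, plus): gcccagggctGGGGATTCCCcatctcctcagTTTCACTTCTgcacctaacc
H2-Q4 (chr17:35379433-35379483, plus): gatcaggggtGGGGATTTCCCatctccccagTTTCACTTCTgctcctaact
H2-Q6 (chr17:35424667-35424717, plus): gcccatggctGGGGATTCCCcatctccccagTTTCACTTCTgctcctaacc
H2-Q7 (chr17:35439012-35439061, plus): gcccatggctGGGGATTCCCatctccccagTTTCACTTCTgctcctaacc
H2-T23 (chr17:36032806-36032835, minus): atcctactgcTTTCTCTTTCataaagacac
B2m (chr2:122147538-122147580, plus): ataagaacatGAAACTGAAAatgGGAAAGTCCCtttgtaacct
The core of the interferon-stimulated response element, which is TTTC, any 2 bases and TTTC, on either strand, matched in H2-T23 and B2m and in 3.04% of all 27025 promoters. The κB-type sequence (GGG, any 2 bases, TT, any base and CC) matched in H2-K1, H2-D1, H2-Q4, H2-Q6, H2-Q7 and B2m and in 4.00% of all promoters. The letters TTTC, any 2 bases and TTCT, which were added to the search after the sequences had been seen, matched in the 5 heavy chains of the K, D and Q regions and in 2.36% of all promoters. The GAS sequence (TTC, any 3 bases and GAA) matched in none of the 8 members and in 7.18% of all promoters, whereas CCAAT matched in all 8 and in 34.5%. A match is a description of the letters and not a site shown to be bound.

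After filtering, libraries held 7857161 to 41979839 UMIs, with a median of 1204 to 4358 per cell. Clusters were named from marker lists, with the members, the other pathway genes and all H2 genes left out of the clustering, and the names carry the suffix -like. ASC1-like, ASC2-like and ASC3-like cells, vascular endothelial (VEC-like) cells and mural-like cells were read in the Lin- fraction, with 356 to 2863, 442 to 1928, 472 to 1126, 254 to 3965 and 105 to 606 cells per library. Between 8.19% and 34.9% of the cells stayed unnamed. The Lin- library of RT replicate 2 stood apart: 72.0% of its barcodes had at least 10% mitochondrial UMIs, and 28.0% were kept. The KO RT Lin- library came next, with 41.3% and 57.7%, against 20.6% and 79.2% in WT RT. CL replicate 2 shared 1098 barcodes between its fractions, against 2 to 126 in the other experiments. Levels are given in CPM, the gene's counts scaled to all counts of the class in that library, and fold changes are log2 values with their standard error (SE) from edgeR, with p adjusted over all genes tested. RT, COLD and CL libraries with the same replicate number came from 1 replicate experiment by the study's methods, and where fitting that number as a block changed a call the value is given.

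Cold raised 3 members in ASC1-like cells: H2-Q7, Tap1 and Nlrc5. All 3 were higher in both COLD libraries than in both RT libraries. Of all genes tested in this class, 6.2% were called higher and 11.8% were called in either direction. Among the 10 members, 8 fold changes were positive and their median was 0.96, against 0.0071 over all genes. H2-Q7 stood at 203 and 199 CPM at RT and at 555 and 521 CPM in the cold, a log2 fold change of 1.52 ± 0.37 (SE, n = 2 libraries per group, edgeR adjusted p = 0.032). Tap1 stood at 47.9 and 72.8 CPM at RT and at 108 and 95.4 CPM in the cold (0.93 ± 0.17, edgeR adjusted p = 0.013). Nlrc5, a gene of low level, stood at 3.92 and 5.06 CPM at RT and at 10.7 and 12.6 CPM in the cold (1.49 ± 0.33, edgeR adjusted p = 0.023). For none of these genes did the RT and COLD libraries overlap.

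The calls depended on single libraries. Without RT replicate 2, no member was called, with H2-Q7 at 1.20 (edgeR adjusted p = 0.083), Tap1 at 0.88 and Nlrc5 at 1.36. No member was called without COLD replicate 1 or without COLD replicate 2 either, and without RT replicate 1 H2-Q7 kept its call (1.93, edgeR adjusted p = 0.024), Tap1 and Nlrc5 lost theirs, and H2-K1 and H2-Q6 were called. Over all libraries left out in turn, the fold change of H2-Q7 ranged from 1.20 to 1.93. With the replicate number as a block the 3 calls were kept and H2-Q6 was called as well (1.10 ± 0.27, edgeR adjusted p = 0.030), where 16.9% of all genes were called.

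The remaining heavy chains fell into those with separate groups and those without. H2-T23 was at 172 and 187 CPM at RT and at 306 and 434 CPM in the cold, which fell short of the threshold (1.18 ± 0.34, edgeR adjusted p = 0.056). H2-Q6 was at 83.3 and 52.0 CPM against 139 and 127 CPM (0.97 ± 0.36, edgeR adjusted p = 0.11). H2-K1 was at 1626 and 1037 CPM against 2474 and 2547 CPM (0.95 ± 0.74, edgeR adjusted p = 0.44). In these 3 genes both COLD libraries were above both RT libraries. H2-T23 and H2-Q6 had an unadjusted p under 0.05 and missed the threshold after adjustment over all genes, whereas the difference of H2-K1 was not beyond the spread that the fit estimated. Without RT replicate 1 H2-K1 rose to 1.77 (edgeR adjusted p = 0.041) and H2-Q6 to 1.84 (edgeR adjusted p = 0.016), and without RT replicate 2 they stood at 0.42 and 0.46. Over 15 alternatives the adjusted p ran from 0.041 to 0.73 for H2-K1 and from 9.5e-05 to 0.33 for H2-Q6. H2-D1 (3698 and 2525 CPM at RT, 3111 and 3798 CPM in the cold) and H2-Q4 (199 and 148 CPM, then 149 and 114 CPM) gave overlapping groups. H2-D1 had a fold change of 0.20 ± 0.94 and H2-Q4 one of -0.35 ± 0.33, with edgeR adjusted p of 0.91 and 0.52.

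B2m was at 5308 and 4498 CPM at RT and at 7769 and 10336 CPM in the cold, with a large estimated error (0.97 ± 1.22, edgeR adjusted p = 0.64). Tap2 was at 127 and 148 CPM against 127 and 119 CPM (-0.03 ± 0.20, edgeR adjusted p = 0.93). The 2 transporter subunits thus gave unlike values, with Tap1 called and Tap2 not, although the difference between the genes was not tested. In all, 7 members did not overlap between the groups with both COLD libraries higher, where 18.9% of all genes did so, and Tap2 was the only member with both COLD libraries lower, where 23.8% of all genes did so.

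**Figure D1:**
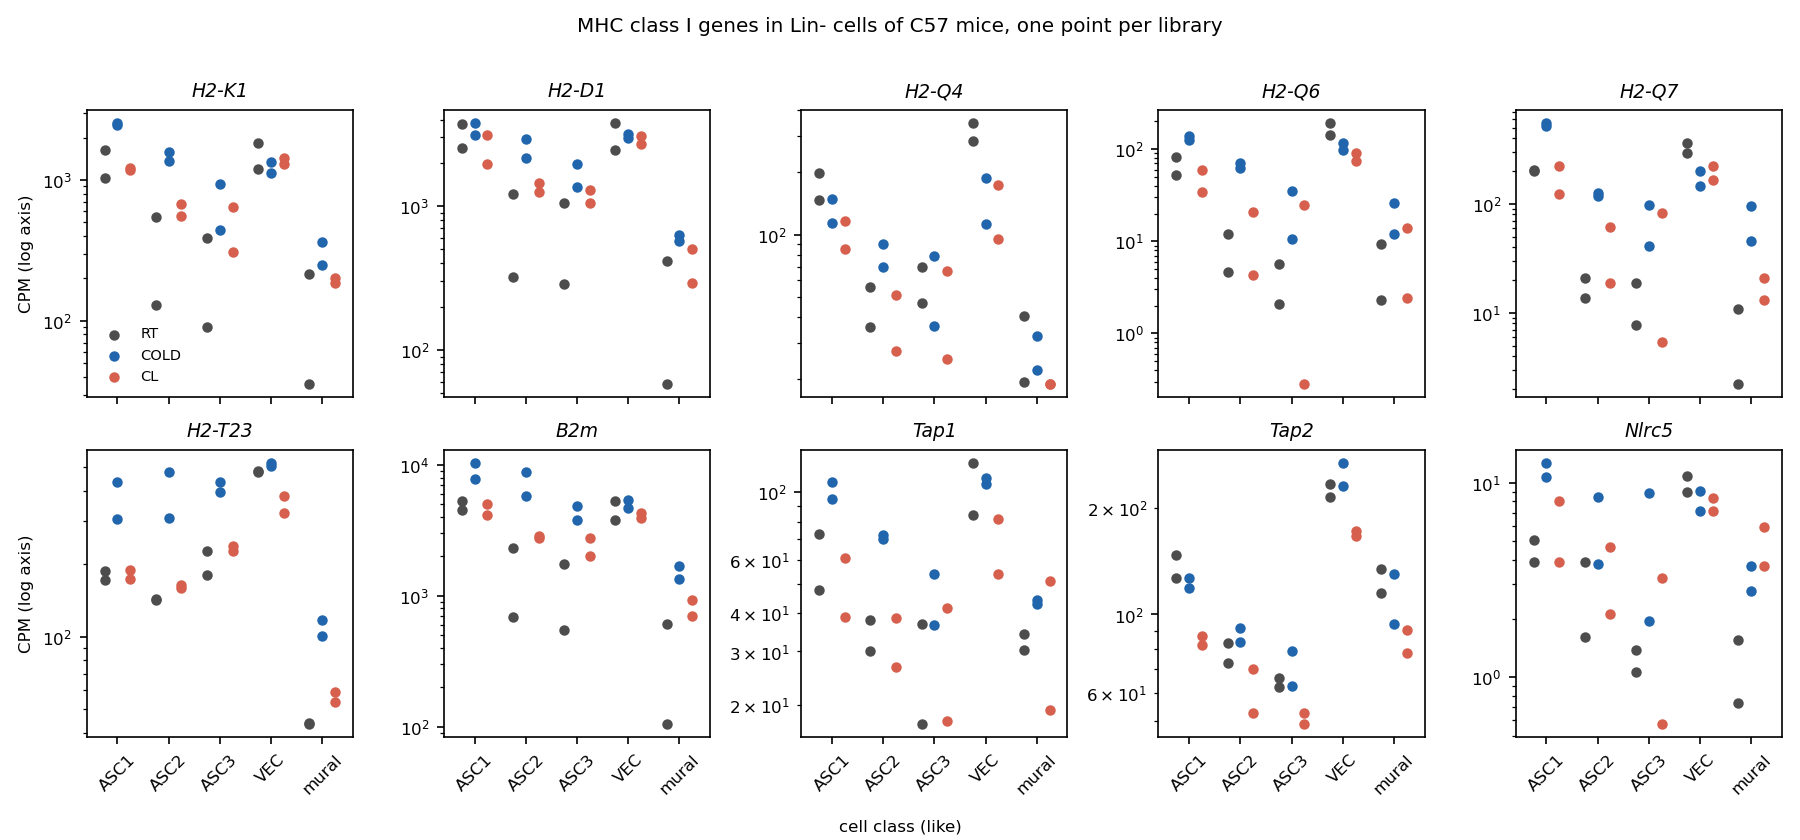
Level of each member (CPM, log axis) in the ASC1-like, ASC2-like, ASC3-like, VEC-like and mural-like cells of the C57 Lin- libraries, 1 point per library, grey for RT, blue for COLD and red for CL. In ASC1-like cells the COLD points of H2-Q7 (555 and 521 CPM) lie above the RT points (203 and 199 CPM) and the CL points.

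The share of ASC1-like cells with a UMI moved with the level. Cells with fewer than 1000 UMIs were left out and the others were thinned to 1000 UMIs each. Of the ASC1-like cells so kept, 18.1% and 12.9% at RT and 33.7% and 32.9% in the cold had a UMI of H2-Q7, a difference of 17.8 percentage points. Unthinned, the shares were 50.7% and 17.5% at RT and 59.2% and 68.1% in the cold. For Tap1 the thinned shares were 5.23% and 7.05% against 11.0% and 9.80%. With 2 libraries against 2, an exact permutation test cannot give a p below 0.3333, the value found for H2-Q7. Erythroid-like cells, which should hold little class I RNA, had a UMI of H2-Q7 in at most 0.610% and of Tap1 in at most 1.80% of cells at the same depth. These cells were in the Lin+ libraries, whereas the ASC1-like cells were read in the Lin- libraries. The mean level in erythroid-like cells was higher in the cold than at RT for all members but Nlrc5. It was 4.96 against 0.734 CPM for H2-Q7, 4.86 against 1.23 CPM for Tap1 and 430 against 36.6 CPM for B2m. The part of such RNA in the values of ASC1-like cells was not tested.

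Different clusters held most of the ASC1-like class at RT and in the cold. A cluster led by Smoc2, Cxcl14, Blnk and Hsd11b1 held 1378 and 1141 of the cells at RT and 257 and 150 in the cold, and one led by Saa3, Ccl2, Cxcl9 and Ubd held 51 and 124 at RT and 2606 and 2184 in the cold. Within the Smoc2 cluster, H2-Q7 was at 199 and 202 CPM at RT and at 345 and 222 CPM in the cold, and Tap1 was at 45.1 and 68.3 CPM against 85.4 and 65.6 CPM. Nlrc5 there was at 3.52 and 5.63 CPM against 9.04 and 11.2 CPM. H2-Q7 and Nlrc5 were thus higher in both COLD libraries inside this cluster as well, whereas the Tap1 values overlapped. Within the Saa3 cluster, H2-Q7 was at 310.3 and 171 CPM at RT, from few cells, and at 569 and 535 CPM in the cold. Tap1 in that cluster was at 119 and 113 CPM at RT and at 110 and 96.7 CPM in the cold, so it was not higher in the cold there. These values were not tested, since clusters were made from the same cells.

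Immune RNA was low in the class. The summed level of 8 immune cell markers in ASC1-like cells was 7.96 and 3.75 CPM at RT, against 11.8 and 10.1 CPM in the cold, and its part in the members' change was not tested beyond leaving out the cells that carried such a marker. Without those cells the same 3 members were called, at 1.54 for H2-Q7, 0.95 for Tap1 and 1.48 for Nlrc5.

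In the other stromal and vascular classes of the Lin- fraction, cold gave calls in ASC2-like and mural-like cells and none in ASC3-like or VEC-like cells. In ASC2-like cells, 2 of 10 members rose, where 0.733% of all genes were called and 0.559% were called higher. H2-Q7 was at 20.7 and 13.8 CPM at RT and at 119 and 125 CPM in the cold (2.77 ± 0.45, n = 2 libraries per group, edgeR adjusted p = 0.034). Tap1 was at 30.0 and 38.0 CPM against 70.2 and 72.4 CPM (1.15 ± 0.18, edgeR adjusted p = 0.031). Both calls were lost without RT replicate 2, at 2.33 and 1.02, and no member was called without COLD replicate 1 or COLD replicate 2. Without RT replicate 1, 4 members were called. With cells whose barcode was in both fractions left out, Tap1 stayed past the threshold (edgeR adjusted p = 0.043) and H2-Q7 did not (2.79, edgeR adjusted p = 0.055). With the replicate block both were kept and H2-Q6 was called too (3.01 ± 0.42, edgeR adjusted p = 0.0081), where 1.99% of all genes were called.

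All 10 members had positive fold changes in ASC2-like cells, with a median of 1.58, against 0.0021 over all genes. H2-Q6 went from 11.9 and 4.67 CPM to 70.3 and 63.0 CPM (2.83 ± 0.56, edgeR adjusted p = 0.064), and H2-T23 from 141 and 143 CPM to 309 and 477 CPM (1.54 ± 0.33, edgeR adjusted p = 0.085). H2-K1 was at 543 and 129 CPM at RT and at 1374 and 1580.3 CPM in the cold (2.02 ± 0.71, edgeR adjusted p = 0.35), and B2m was at 2299.6 and 693 CPM against 5781 and 8857 CPM (2.21 ± 0.84, edgeR adjusted p = 0.39). The fold changes of these last 2 were large, and so was the gap between their RT libraries. Both COLD libraries were higher than both RT libraries for 9 of the members, all but Nlrc5, where 10.6% of all genes showed this.

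In mural-like cells, the cells that wrap blood vessels, 2 of the 9 members tested rose, where 0.435% of all genes were called and 0.329% were called higher. H2-Q7 was at 10.9 and 2.22 CPM at RT and at 95.9 and 46.0 CPM in the cold (3.15 ± 0.55, edgeR adjusted p = 0.045). H2-T23 was at 43.9 and 43.5 CPM against 101 and 117 CPM (1.35 ± 0.25, edgeR adjusted p = 0.048). H2-T23 was close between replicates at each temperature, whereas the RT libraries of H2-Q7 differed between themselves. The 2.22 CPM of H2-Q7 in RT replicate 2 came from 647488 counts of the class, and so from very few UMIs of the gene. Both calls sit near the threshold, and that of H2-T23 was lost in 10 of 14 alternatives (1.14 to 1.68, edgeR or DESeq2 adjusted p up to 0.29), that of H2-Q7 in 3 of 13 (2.48 to 5.65, the highest without RT replicate 1). Without the top doublet scores H2-Q7 was too low to be tested. Without RT replicate 2, H2-Q7 alone was called (2.48), no member was called without COLD replicate 1, CL replicate 1 or CL replicate 2, and 5 were called without RT replicate 1. The median over the 9 members was 1.24, against -0.0047 over all genes, and both COLD libraries were above both RT libraries for 7 of the 9, where 13.8% of all genes showed this.

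In ASC3-like cells 9 members were tested and none was called by edgeR or DESeq2, with 3 at an unadjusted p under 0.05 in edgeR, where 0.256% of all genes were called. Of the 9 fold changes, 8 were positive, from -0.18 to 2.52, with a median of 1.14 against 0.0054 over all genes. H2-T23 was at 180.1 and 226 CPM at RT and at 396 and 432 CPM in the cold. H2-Q7 was at 7.80 and 19.0 CPM against 98.1 and 40.8 CPM. In both genes the COLD libraries lay above the RT libraries, as they did for 6 of the 9 members tested and for 11.8% of all genes. With the replicate block H2-Q7 was called (2.75 ± 0.60, edgeR adjusted p = 0.043), where 1.13% of all genes were.

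In VEC-like cells no member was called by edgeR or DESeq2, with 3 at an unadjusted p under 0.05 in edgeR, all lower in the cold, where 0.237% of all genes were called. The Qa-region genes stood lower in both COLD libraries: H2-Q4 was at 348 and 284 CPM at RT and at 189 and 112 CPM in the cold (-1.08 ± 0.35, edgeR adjusted p = 0.32). H2-Q7 was at 364 and 292 CPM against 200.1 and 146 CPM (-0.93 ± 0.29, edgeR adjusted p = 0.30). H2-Q6 was at 194 and 144 CPM against 117 and 97.3 CPM (-0.68 ± 0.27, edgeR adjusted p = 0.43). The groups did not overlap in these 3 genes, and 19% of all genes were likewise lower in both COLD libraries. H2-T23 was at 478 and 483 CPM at RT and at 519.7 and 506 CPM in the cold, and B2m at 5295 and 3763 CPM against 4650.4 and 5373 CPM. The summed erythroid markers in VEC-like cells ranged from 48.3 to 11611 CPM over the libraries, and their part in these values was not tested.

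**Figure D2:**
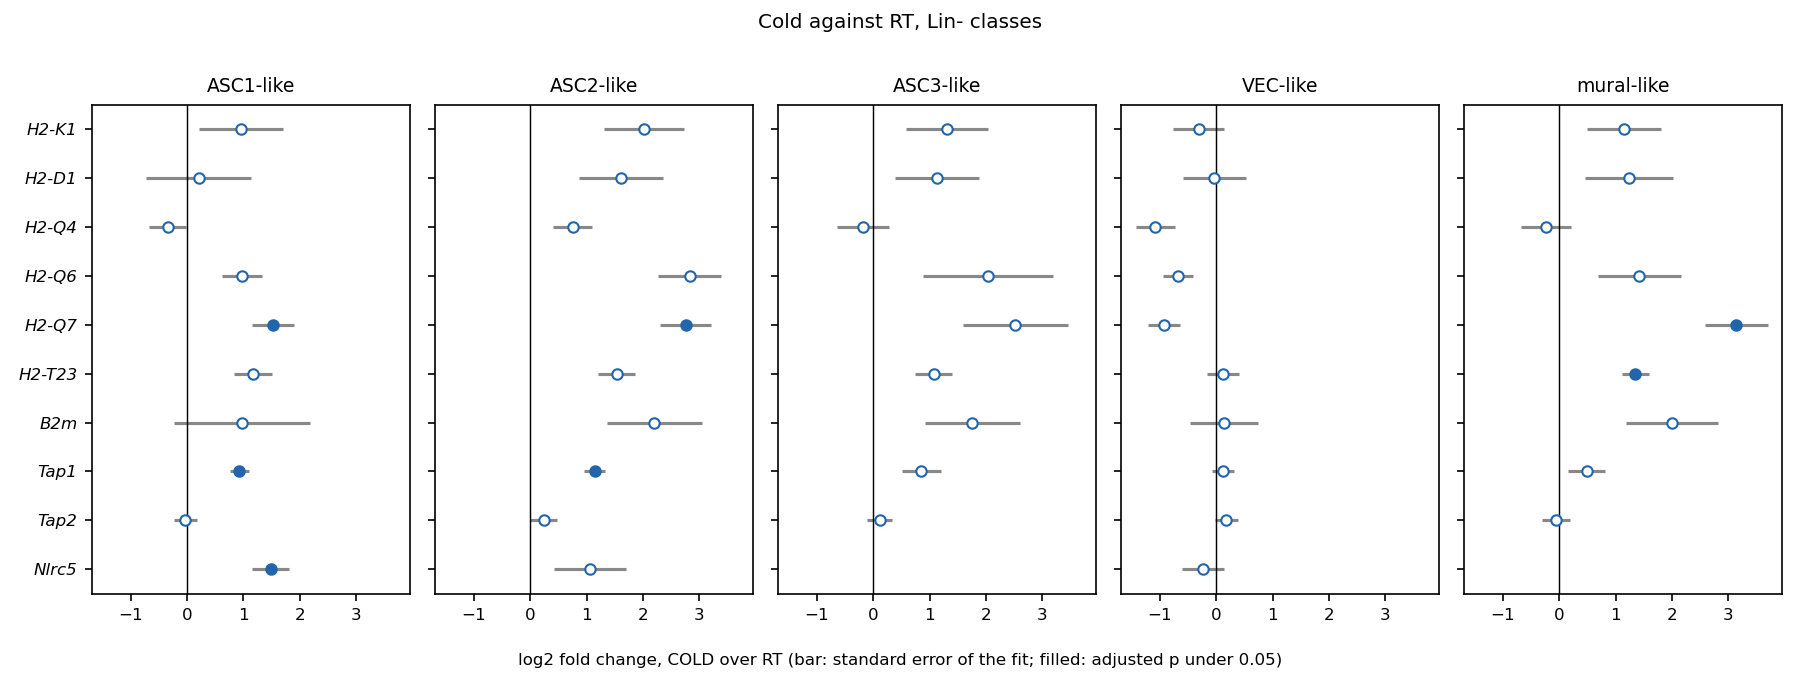
Log2 fold change of each member between COLD and RT in 5 Lin- classes, with bars for 1 SE, from edgeR fits over 6 C57 libraries. Filled points have an adjusted p under 0.05: H2-Q7, Tap1 and Nlrc5 in ASC1-like cells, H2-Q7 and Tap1 in ASC2-like cells, and H2-Q7 and H2-T23 in mural-like cells.

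Whether the classes responded unequally was examined by fitting both classes together, with a term for class and treatment and the library as a block. Values are the cold response in ASC1-like cells minus that in the other class. Against VEC-like cells, 3 members differed, all with the greater response in ASC1-like cells, where 5.17% of all genes differed and 2.5% did so in this direction. They were H2-Q7 (2.44 ± 0.29, edgeR adjusted p = 0.0013), H2-Q6 (1.69 ± 0.23, edgeR adjusted p = 0.0027) and Tap1 (0.77 ± 0.19, edgeR adjusted p = 0.041). Without RT replicate 2 the first 2 stayed past the threshold, at 2.45 and 1.49, and Tap1 did not, at 0.67.

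Against ASC2-like cells, 3 members differed, all with the smaller response in ASC1-like cells, where 8.76% of all genes differed and 5.02% did so in this direction. They were H2-Q6 (-1.93 ± 0.30, edgeR adjusted p = 0.00097), H2-Q4 (-1.16 ± 0.17, edgeR adjusted p = 0.00067) and H2-Q7 (-1.31 ± 0.26, edgeR adjusted p = 0.0060). All 3 stayed past the threshold without RT replicate 2, at -1.82, -1.11 and -1.15. H2-D1 (-1.78 ± 0.55, edgeR adjusted p = 0.059) and H2-K1 (-1.46 ± 0.47, edgeR adjusted p = 0.070) did not pass. H2-Q4 passed here although it was called in neither class alone: its RT and COLD libraries overlapped in ASC1-like cells (-0.35 ± 0.33) and it went from 55.6 and 35.7 CPM to 90.4 and 69.5 CPM in ASC2-like cells.

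Against mural-like cells H2-Q7 alone differed (-1.72 ± 0.48, edgeR adjusted p = 0.027), where 8.41% of all genes differed and 4.68% did so in this direction, and it no longer passed without RT replicate 2 (-1.27) or without COLD replicate 1. The RT level of H2-Q7 in mural-like cells rests on few UMIs. Against ASC3-like cells no member differed by edgeR or DESeq2, with 2 at an unadjusted p under 0.05 in edgeR, where 7.18% of all genes differed. The 10 differences there ran from -1.30 to 0.06.

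**Figure D3:**
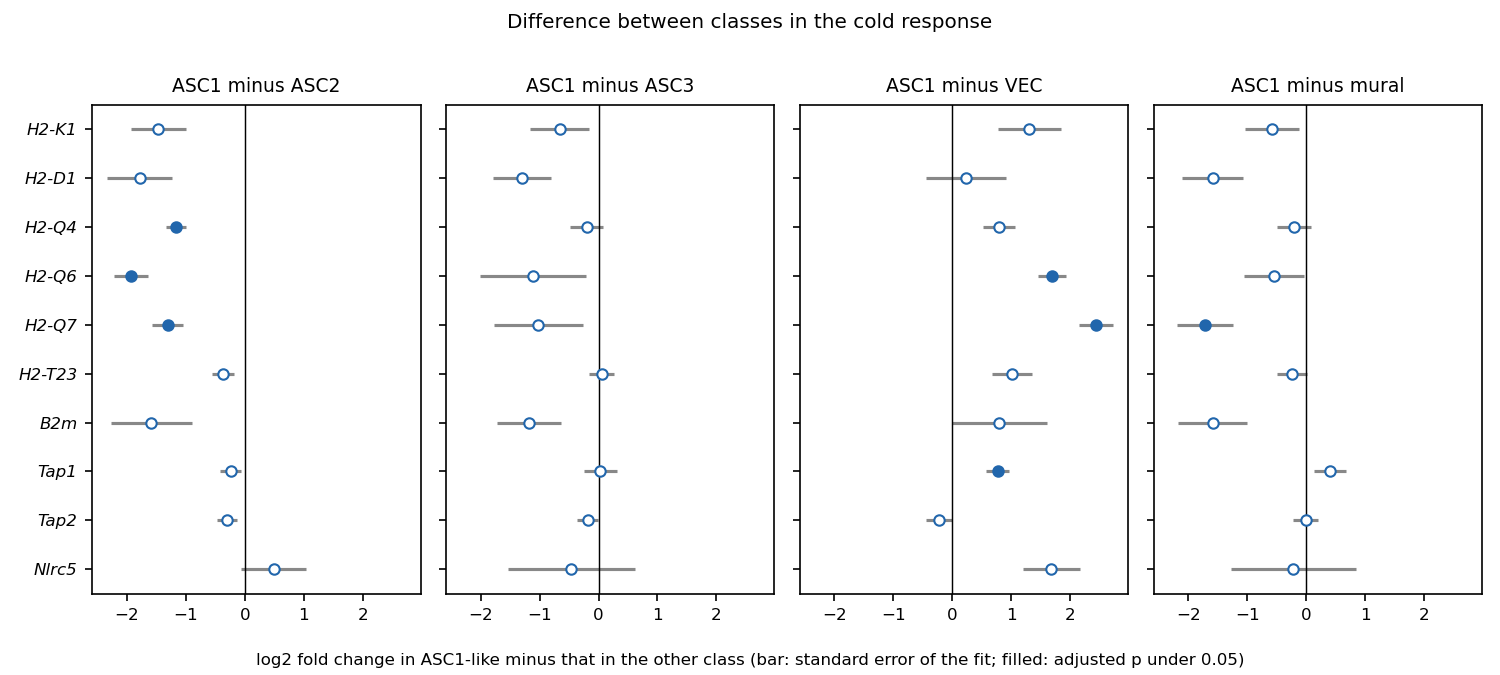
Difference in the cold response (log2 fold change in ASC1-like cells minus that in ASC2-like, ASC3-like, VEC-like or mural-like cells), with bars for 1 SE and filled points for an adjusted p under 0.05. The Qa-region genes lie below 0 against ASC2-like cells (-1.16 for H2-Q4, -1.93 for H2-Q6 and -1.31 for H2-Q7), and H2-Q6 and H2-Q7 lie above 0 against VEC-like cells (1.69 and 2.44).

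The RT replicates differed by gene and by class. In mural-like cells, RT replicate 2 had 0.173 times the B2m level of RT replicate 1, 0.165 times the H2-K1 level and 0.140 times the H2-D1 level, and the ratios of the same genes were 0.301, 0.239 and 0.263 in ASC2-like and 0.312, 0.231 and 0.277 in ASC3-like cells. In ASC1-like cells they were 0.847, 0.638 and 0.683. The ratio also fell with level over all genes: across the 5 classes its median was 1.34 to 1.64 for genes of 20 to 200 CPM, 0.976 to 1.09 for those of 200 to 500 CPM and 0.568 to 0.781 for those of at least 500 CPM. In ASC2-like, ASC3-like and mural-like cells these 3 members thus lay below the median of each level. H2-T23 had a ratio of 1.09 in ASC1-like, 1.02 in ASC2-like, 1.25 in ASC3-like and 0.991 in mural-like cells, and the last lay below the median of 1.46 for genes of 20 to 200 CPM in that class. The Lin- library of RT replicate 2 also had the fewest UMIs of the 20 (7857161), with a median of 1247 per cell against 3358 in RT replicate 1. The part of its discarded barcodes and of its depth in these ratios was not tested.

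**Figure D4:**
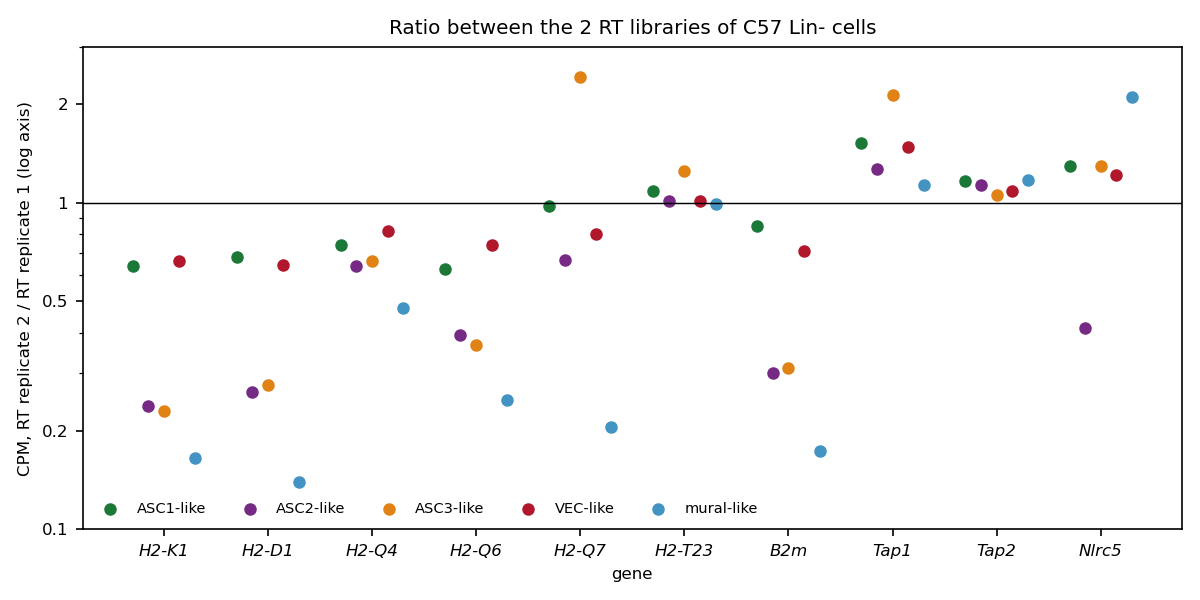
Ratio of each member's CPM in RT replicate 2 to that in RT replicate 1, by class (log axis). H2-K1, H2-D1 and B2m lie between 0.140 and 0.312 in ASC2-like, ASC3-like and mural-like cells, and H2-T23 lies between 0.991 and 1.25 there.

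Infusion of CL gave no member call among the 48 member-by-class pairs of the 5 Lin- classes by edgeR or DESeq2, with 4 at an unadjusted p under 0.05 in edgeR, 3 of them lower. Of all such pairs over all genes, 0.356% were called, and in ASC2-like and ASC3-like cells 0.0183% and 0.0787% of all genes were. In ASC1-like cells 1.44% of all genes were called, 3 members had positive fold changes and the median of the 10 was -0.05, against -0.00021 over all genes. H2-Q7 was at 224 and 124 CPM after CL, around the RT values of 203 and 199 CPM, with a fold change of -0.06 ± 0.36. Tap1 was at 61.1 and 39.0 CPM (-0.05 ± 0.18) and Nlrc5 at 8.09 and 3.92 CPM (0.51 ± 0.38). H2-Q4 (116 and 85.5 CPM) and Tap2 (87.1 and 81.9 CPM) were lower in both CL libraries than in both RT libraries, as 22.1% of all genes were, and neither passed the test. In VEC-like cells, where 0 genes of the whole table were called, all 10 fold changes were negative with a median of -0.29, and 7 members were lower in both CL libraries, where 20.4% of all genes were. The direction was not the same in each class. In ASC3-like cells H2-Q4 (-0.48) and Tap2 (-0.21) were negative and the other members tested ran from 0.26 for Tap1 to 1.63 for H2-Q7. In mural-like cells H2-Q4 (-0.68) and Tap2 (-0.38) were negative and the others ran from 0.030 for H2-Q6 to 1.20 for B2m. None in these 2 classes had an unadjusted p under 0.05 in edgeR.

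Set directly against CL, cold gave higher levels of all 10 members in ASC1-like cells, with a median difference of 0.96 against -0.00022 over all genes, but none passed the threshold. Over the 5 Lin- classes 0 of 48 pairs were called by edgeR, where 0.141% of all pairs were, with 0.475% of all genes in ASC1-like, 0.0825% in ASC2-like, 0.0295% in ASC3-like and 0.0425% in mural-like cells. At an unadjusted p under 0.05, 13 pairs were higher in the cold and 0 lower, and DESeq2 called 2. Tap1 in ASC1-like cells came nearest in that class (0.98 ± 0.18, edgeR adjusted p = 0.069). With the replicate block 3 pairs were called, where 0.334% of all pairs were: Tap1 in ASC1-like cells (0.98 ± 0.16, edgeR adjusted p = 0.036), where 0.668% of all genes were called, and Tap1 (1.04 ± 0.17, edgeR adjusted p = 0.045) and H2-Q6 (2.76 ± 0.40, edgeR adjusted p = 0.026) in ASC2-like cells, where 0.449% were. In these Lin- classes, with the filter on low counts and all libraries kept, edgeR thus called 3 pairs between cold and CL with the block and none without it.

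In the Lin+ fraction, 6 of 66 member-by-class pairs over 7 immune classes were called after cold, 2 higher and 4 lower. This share was no greater than the 10.7% of all pairs called. Of these, 5 were in macrophage (MAC-like) cells, a class in which 36.6% of all genes were called, 18.3% higher and 18.3% lower. A further group of Lin+ cells, with Cxcl10 among its leading genes, held 3357 cells, 14 to 1063 per library. It was counted with the unnamed cells, so the MAC-like values do not cover it, and the members were not tested there. H2-Q4 was at 91.9 and 63.5 CPM at RT and at 24.2 and 20.2 CPM in the cold (-1.75 ± 0.21, n = 2 libraries per group, edgeR adjusted p = 0.00041). H2-Q6 was at 38.5 and 28.5 CPM against 7.99 and 7.29 CPM (-2.06 ± 0.34, edgeR adjusted p = 0.0018). Both fell, with no overlap between the groups. H2-Q7 was at 120.4 and 94.6 CPM against 66.5 and 67.0 CPM (-0.64 ± 0.19, edgeR adjusted p = 0.029), and Nlrc5 was at 16.2 and 16.5 CPM against 10.0 and 9.88 CPM (-0.68 ± 0.22, edgeR adjusted p = 0.039). B2m rose, from 4786 and 5328 CPM to 7339 and 8752 CPM (0.72 ± 0.25, edgeR adjusted p = 0.046). The light chain and the Qa-region heavy chains thus moved in opposite directions in this class, while H2-K1 was at 1278 and 1314 CPM at RT and at 1176 and 1243 CPM in the cold. Without RT replicate 2, H2-Q4 (-1.95), H2-Q6 (-2.23) and H2-Q7 (-0.76) stayed called and B2m (0.84) and Nlrc5 (-0.63) did not. B2m also lost its call with the replicate block (0.72 ± 0.31, edgeR adjusted p = 0.084). Over 13 alternatives the calls of H2-Q4 and H2-Q6 were kept in each, while that of H2-Q7 was lost in 4, that of B2m in 5 and that of Nlrc5 in 7 (-0.70 to -0.57, edgeR or DESeq2 adjusted p up to 0.18).

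Different clusters again held most of the class. A cluster led by Cd209f, Cd163, Ccl8 and Cd209g held 693 and 674 MAC-like cells at RT and 151 and 52 in the cold, and one led by Gpnmb, Syngr1, Spp1 and Atp6v0d2 held 1777 and 1270 cells in the cold and fewer than 20 in each RT library. Within the Cd209f cluster, H2-Q6 was at 38.9 and 28.6 CPM at RT and at 9.79 and 13.8 CPM in the cold. H2-Q4 there was at 93.2 and 64.2 CPM against 52.0 and 65.7 CPM, and H2-Q7 at 119.7 and 89.8 CPM against 96.8 and 173 CPM. H2-Q6 was thus lower in both COLD libraries inside this cluster, whereas the values of H2-Q4 and H2-Q7 overlapped. B2m in the cluster was at 4677 and 5155 CPM at RT and at 7251 and 8868 CPM in the cold. In the Gpnmb cluster H2-Q4 was at 22.6 and 18.8 CPM in the cold.

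Dendritic (DEND-like) cells, which prime T cells, gave the remaining call. It was 1 of 10 members, a share below that of all genes called in the class in either direction. H2-Q7 was at 129 and 94.6 CPM at RT and at 222 and 226 CPM in the cold (0.76 ± 0.19, edgeR adjusted p = 0.033), where 13.9% of all genes were called and 6.36% were called higher. It was at 109 and 87.8 CPM after CL, and the direct contrast of cold with CL passed as well (1.14 ± 0.18, edgeR adjusted p = 0.020), where 1.95% of all genes did and 1.19% did with a higher level in the cold. Without RT replicate 2 the cold call was lost (0.52) and the contrast with CL was kept. With the replicate block H2-Q4 was called lower after CL (-0.83 ± 0.18, edgeR adjusted p = 0.045), where 2.25% of all genes were called. The block also gave Tap2 a call as higher in cold than after CL (0.70 ± 0.16, edgeR adjusted p = 0.033), for which the share of all genes is not given. B2m (2987 and 3795 CPM at RT, 5738 and 7364 CPM in the cold) and H2-K1 (838 and 816 CPM, then 1348 and 1515 CPM) did not pass, with edgeR adjusted p of 0.098 and 0.12. In monocyte-like cells all 10 fold changes were negative and none passed by edgeR, with 2 at an unadjusted p under 0.05. H2-Q6 there was at 33.0 and 24.8 CPM at RT and at 6.17 and 5.18 CPM in the cold (-2.33 ± 0.46, edgeR adjusted p = 0.063), where 0.297% of all genes were called. With the replicate block H2-Q6 (-2.32 ± 0.47, edgeR adjusted p = 0.025) and H2-Q7 (-1.24 ± 0.28, edgeR adjusted p = 0.039) were called lower there, where 1.6% of all genes were called.

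After CL, 2 of the 66 Lin+ pairs were called, where 1.82% of all pairs were and 0.763% were lower. Both were lower and both were in MAC-like cells, where 7.58% of all genes were called and 3.14% were called lower. H2-Q4 was at 34.3 and 32.3 CPM after CL (-1.22 ± 0.21, edgeR adjusted p = 0.012), and H2-Q6 was at 6.09 and 12.5 CPM (-1.92 ± 0.36, edgeR adjusted p = 0.017). Without RT replicate 1 or CL replicate 1 neither was called, without RT replicate 2 H2-Q4 alone was, and 4 pairs were called without CL replicate 2. T-cell-like cells had Nlrc5 at 65.0 and 56.2 CPM at RT, 62.1 and 40.2 CPM in the cold and 15.3 and 25.3 CPM after CL, and this decrease did not pass (-1.34, edgeR adjusted p = 0.30), where 0.025% of all genes were called.

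**Figure D5:**
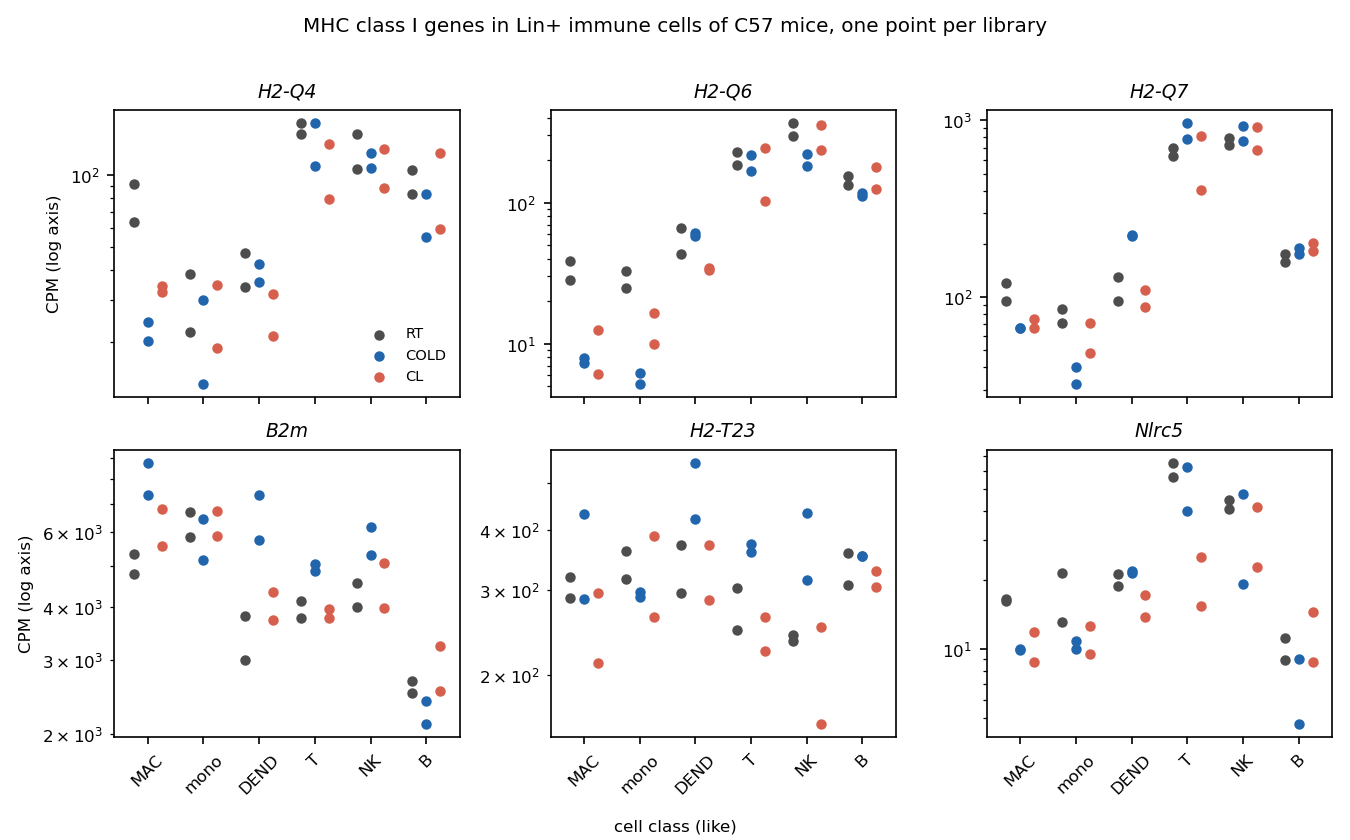
Level (CPM, log axis) of H2-Q4, H2-Q6, H2-Q7, B2m, H2-T23 and Nlrc5 in macrophage-, monocyte-, dendritic-, T-cell-, NK-cell- and B-cell-like cells of the C57 Lin+ libraries, 1 point per library, grey for RT, blue for COLD and red for CL. In MAC-like cells the COLD points of H2-Q4 (24.2 and 20.2 CPM) lie below the RT points (91.9 and 63.5 CPM).

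In the Adrb1 line, the deleted gene was examined first. Over the ASC-like classes together Adrb1 was at 1.43 CPM in WT and 0.208 CPM in KO at RT, and at 2.79 and 0.480 CPM in the cold, from 13.0, 0.999, 51.1 and 5.97 counts. It was thus lower in KO at both temperatures. In mural-like cells it was at 60.9 and 70.9 CPM in WT and at 93.3 and 83.4 CPM in KO, at RT and in the cold. RT libraries of this line were made with kit version 3 and cold libraries with version 2, so the effects of temperature and kit cannot be told apart and no cold response is given for it. B2m, for example, was at 1062 and 1169.7 CPM in VEC-like cells of the version 3 libraries and at 3640.4 and 3002 CPM in those of version 2. Genotype was tested as a shift common to both temperatures over 4 libraries, which leaves 1 residual degree of freedom, and with 1 library per genotype and temperature the estimate of the spread rests on little. In the Lin- fraction KO RT kept 57.7% of its barcodes and WT RT 79.2%, and the part of this in the genotype shifts was not tested.

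In ASC1-like cells 6 of 10 members were called higher in KO, where 1.46% of all genes were called and 0.784% were called higher. All 10 fold changes were positive, with a median of 0.60 against -0.014 over all genes. Nlrc5 was at 3.18 CPM in WT and 8.60 CPM in KO at RT, and at 6.50 and 12.9 CPM in the cold (1.05 ± 0.30, edgeR adjusted p = 0.030). H2-Q6 was at 41.4 and 53.0 CPM at RT and at 41.4 and 91.4 CPM in the cold (0.86 ± 0.17, edgeR adjusted p = 6.3e-05). Tap1 was at 47.6 and 54.9 CPM, then 59.4 and 127 CPM (0.77 ± 0.17, edgeR adjusted p = 0.00057). The KO library was the higher of each pair, with the wider gap for H2-Q6 and Tap1 in the cold. H2-Q4 (90.4 and 146 CPM, then 70.1 and 114 CPM) gave 0.69 ± 0.16 and H2-T23 (129 and 136 CPM, then 148 and 310.3 CPM) gave 0.62 ± 0.16, with edgeR adjusted p of 0.0013 and 0.0068. H2-Q7 (127 and 182 CPM, then 183 and 286 CPM) gave 0.57 ± 0.15 (edgeR adjusted p = 0.018). H2-K1, H2-D1, B2m and Tap2 did not pass, at 0.45, 0.45, 0.40 and 0.28.

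These genotype calls depended on the processing: DESeq2, clustering at the coarser resolution, leaving out the top doublet scores and a fit over all 10 libraries each gave 0 calls in the 5 Lin- classes. Over 12 alternatives, among them the fits that left out 1 library and so rest on 1 temperature, the fold change in ASC1-like cells ran from 0.65 to 0.72 for H2-Q4, from 0.48 to 0.65 for H2-Q7 and from 0.98 to 1.40 for Nlrc5. It varied more for H2-Q6 (0.31 to 1.15), Tap1 (0.17 to 1.10) and H2-T23 (0.030 to 1.08), which were lowest without WT COLD or KO COLD. Whether the shift differed between temperatures was tested in the fit over 10 libraries, a test added after the values had been seen, in which each single library is assumed to vary like the C57 replicates. Of 49 pairs 0 were called by edgeR or DESeq2, where edgeR called 0% of all pairs, and 4 had an unadjusted p under 0.05 in edgeR. All 4 were Tap1, with the greater KO shift in the cold: 0.92 ± 0.39 in ASC1-like, 1.16 ± 0.37 in ASC2-like, 1.36 ± 0.45 in VEC-like and 3.31 ± 1.32 in mural-like cells. Kit version changes with temperature in this line, so a difference by temperature cannot be told apart from a difference by kit. In mural-like cells, where 2.82% of all genes were called, 0.958% higher and 1.86% lower, H2-T23 was called higher in KO (25.6 and 30.2 CPM at RT, 42.4 and 114 CPM in the cold, 1.04 ± 0.32, edgeR adjusted p = 0.039). H2-K1 was called lower there (190.4 and 187 CPM at RT, 128 and 26.0 CPM in the cold, -0.84 ± 0.25, edgeR adjusted p = 0.030). The RT values of each gene were close and those of the cold pair were further apart, and over the alternatives the fold changes ran from 0.14 to 1.41 for H2-T23 and from -2.33 to -0.11 for H2-K1. Only 7 members were tested in this class. Its KO libraries held 105 cells at RT and 148 in the cold, so the lowest of these values rest on few UMIs.

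No member was called by edgeR in ASC2-like, ASC3-like or VEC-like cells, where 0.505%, 0.654% and 0.429% of all genes were, and 5, 3 and 0 members had an unadjusted p under 0.05. In VEC-like cells 3 of 10 fold changes were positive and the median was -0.10. Over the Lin+ classes 0 of 68 pairs were called by edgeR or DESeq2, where 0.189% of all pairs were, with 9 at an unadjusted p under 0.05, all higher in KO. In MAC-like cells all 10 members had positive fold changes, from 0.20 to 0.79, with edgeR adjusted p between 0.74 and 0.87, where 0.0321% of all genes were called. The positive direction was therefore also present in a class of the other fraction, and whether it differed between the classes was not tested.

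Across classes the order of levels differed from gene to gene and is a description, since the classes were made by clustering these cells. At RT, H2-Q7 was highest in NK-cell-like (763 ± 49.5 CPM, SD, n = 2 libraries) and T-cell-like cells (661 ± 47.8 CPM). VEC-like (328 ± 51.4 CPM) and ASC1-like cells (201 ± 2.79 CPM) came next. ASC2-like (17.3 ± 4.86 CPM) and mural-like cells (6.54 CPM on average) stood near the bottom, above erythroid-like cells (0.734 CPM). In the cold, ASC1-like cells (538 ± 23.9 CPM) stood above VEC-like cells (173 ± 38.4 CPM), the reverse of their order at RT, while T-cell-like (877 ± 130 CPM) and NK-cell-like cells (849 ± 116 CPM) remained highest and did not differ beyond their spread. For B2m, monocyte-like (6274 ± 606 CPM), MAC-like (5057 ± 384 CPM), ASC1-like (4903 ± 573 CPM) and VEC-like cells (4529 ± 1083 CPM) led at RT, and the last 3 did not differ beyond their spread. In the cold ASC1-like cells had the greatest mean (9053 ± 1815 CPM), within the spread of MAC-like (8045 ± 999 CPM) and ASC2-like cells (7319 ± 2175 CPM). H2-K1 at RT was highest in NK-cell-like cells (2079 ± 115 CPM), and VEC-like (1513 ± 435 CPM) and ASC1-like cells (1331 ± 416 CPM) did not differ beyond their spread.

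The members did not all share one pattern. Over 30 points (5 Lin- classes in 6 C57 libraries, which share libraries and depth), the level of each member, as log2 of CPM plus 1, was set against the mean of the others, after the mean of each class had been subtracted. Pearson's r was 0.90 for H2-Q7, 0.89 for H2-Q6 and 0.87 for H2-K1, but 0.51 for H2-Q4 and 0.17 for Tap2. H2-Q6 and H2-Q7 are close copies with an uncertain split of reads, and each was set against a mean that held the other. Their values are thus not independent. Among 7309 genes of at least 20 CPM on average, those most like the mean of the members were Ly6e (0.87), Isg15 (0.86), Iigp1 (0.84), Psmb8 (0.84) and Cxcl9 (0.82), over the same 30 points. Psmb8 encodes a subunit of the immunoproteasome, and the other 4 are known as interferon-induced genes.

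Other steps of the pathway were read from gene lists in ASC1-like cells after cold. Of 12 genes of peptide supply and loading (the immunoproteasome, its activator, the loading complex and trimming), 0 were called by edgeR and 4 had an unadjusted p under 0.05, all higher. Psme1 (0.99) and Erap1 (0.55) were called with the replicate block, a share of the list no greater than that of all genes called in the same fit. Of the 12 fold changes 11 were positive and the median was 0.51. Psmb8 was at 209 and 174 CPM at RT and at 424 and 360.0 CPM in the cold (1.11 ± 0.36, edgeR adjusted p = 0.083). The 3 constitutive subunits of the proteasome had a median of 0.38, with 0 called by edgeR and 0 at an unadjusted p under 0.05. Of 9 other class I genes tested, 2 rose and 1 fell: H2-T22 (199 and 277 CPM, then 459 and 498 CPM, 1.17 ± 0.31, edgeR adjusted p = 0.044), the low-level H2-M2 (0.953 and 1.52 CPM, then 24.8 and 16.1 CPM, 4.20 ± 0.80, edgeR adjusted p = 0.013) and, downward, H2-Q10 (194 and 358 CPM, then 77.7 and 74.2 CPM, -1.65 ± 0.21, edgeR adjusted p = 0.0026). Class I genes thus moved in both directions within the class, and the share of these 9 that was called was greater than that of all genes. H2-T22 lost its call with the replicate block (edgeR adjusted p = 0.058). Of 6 class II genes tested, 0 were called by edgeR and 0 had an unadjusted p under 0.05.

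Regulators of class I genes gave 5 calls of 22, all higher, with a list median of 0.22. This was a greater share than that of all genes called higher in ASC1-like cells, given above. Irf7, a factor of the type I interferon response, was at 25.7 and 36.9 CPM at RT and at 451 and 445 CPM in the cold (4.01 ± 0.27, edgeR adjusted p = 0.00031). Irf8, Relb and Stat2 also rose, and Irf1 did not pass (0.14). Of 20 interferon response genes outside the pathway, 18 rose with a median of 2.46, against 0.96 over the members. Ifit1 was at 34.7 and 41.2 CPM at RT and at 348 and 462 CPM in the cold. The same list gave 14 calls of 20 in ASC2-like, 9 of 19 in ASC3-like, 7 of 18 in mural-like and 5 of 19 in VEC-like cells, all higher, and Irf7 was called higher in each of these classes. In each class this was a greater share than that of all genes called after cold, given above. In mural-like cells the list gave 12 of 18 with the replicate block, for which the share of all genes is not given. After CL, 3 of the 20 and Irf7 (1.66) were called higher in ASC1-like cells, where no member was. The 6 interferon genes themselves were too low to be tested in these 5 classes.

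In MAC-like cells after cold, where B2m rose and the Qa-region genes fell, class II genes fell in 7 of 7 cases, with a median of -3.51. Different clusters held most of this class at RT and in the cold, as given above. The lists were not read within clusters, and the part of this change of clusters in their values was not tested. The loading list gave 2 calls of 12, Calr and Pdia3, both higher, a share no greater than the 18.3% of all genes called higher in this class, and Pdia3 was lost with the replicate block (0.54). The constitutive proteasome list gave 3 of 3 higher. Other class I genes gave 2 higher and 6 lower calls of 9, where 18.3% of all genes were called in each direction. Irf7 was higher (3.65) and Irf1 lower (-2.08). In the KO comparison, 18 of the 20 interferon response genes were called higher in ASC1-like cells, with a median of 1.02, where 0.784% of all genes were called higher. Irf7 (1.11) and H2-T22 were called higher too, and 0 of the 12 loading genes were called, with 2 at an unadjusted p under 0.05. The interferon list gave 10 higher calls of 19 in ASC3-like, 4 of 11 in mural-like and 0 of 19 in VEC-like cells by edgeR, the last with 6 at an unadjusted p under 0.05. In ASC2-like cells it gave 6 of 20 higher and 1 lower, Cxcl10 (-0.85, edgeR adjusted p = 0.012). These KO calls come from the fit over 4 libraries with 1 residual degree of freedom, in which the member calls depended on the processing. The calls of this list under the alternatives are not given.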

How the data were processed

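Single-cell RNA-seq of 20 iBAT libraries was analysed. The deposited matrices hold expected counts: per the labels the authors ran Cell Ranger 3.0.1 with mm10, and by the study's methods they corrected the UMI counts with SoupX (genes Fabp4 and Car3), so most entries are not whole. The annotation is not given in the sources used here.

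Cells with under 10% mitochondrial UMIs, at most 15000 UMIs, and at most 4000 genes (Lin+) or at least 100 genes (Lin-) were kept. Each fraction was clustered with scanpy 1.11.5 (2000 variable genes, 30 components, 30 neighbours, leidenalg 0.10.2, resolution 1, seed 1). Doublets were kept, and leaving out the top 6% of Scrublet scores was an alternative. Counts were summed per class and library (at least 20 cells), rounded and tested two-sided with edgeR 4.0.16 (TMM, filterByExpr, glmQLFit, glmQLFTest), with Benjamini-Hochberg adjustment over all genes and a threshold of 0.05. SE is the absolute log2 fold change divided by the root of F. The steps were tested on simulated data. DESeq2 1.42.0, R 4.3.3, Python 3.11.15, limma 3.58.1, scipy 1.17.1 and matplotlib 3.10.9 were also used. Non-overlap was counted over genes with at least 10 counts. GRCm38.p6 RefSeq promoters match mm10.

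The members and gene lists were chosen with earlier results of these data known. The rule for named genes was all members in ASC1-like cells and, in other classes, those past the threshold. Other members and list genes named with values were chosen after these were seen. The values of 1 gene of the regulator list are not reported here. Replicates were separate libraries: a chi-square of their summed counts, divided by its degrees of freedom, was 32.7 to 255. P-values measure the spread between pools in the C57 comparisons. In the KO against WT fit each genotype and temperature had 1 library, so no replicate pools enter it. Its 1 residual degree of freedom is the departure from a shift common to both temperatures. The study's methods merged C57 libraries of the same replicate number as 1 replicate experiment, so that number was also fitted as a block. Deviations of same-numbered Lin- libraries from their group means correlated between -0.092 and 0.32 (Pearson's r over genes, 5 classes).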

Additional observations from a re-analysis of the deposited data

Results flagged for a closer look

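The response to cold differed between classes, by a test of the difference itself, for 7 combinations of gene and class pair. Against ASC2-like cells, the response of ASC1-like cells was smaller by a log2 difference of -1.16 for H2-Q4, -1.93 for H2-Q6 and -1.31 for H2-Q7, with each of the 3 past the threshold in all 13 alternatives. Of the windows at the 3′ end of H2-Q6, 46.9% also occur in another gene, H2-Q7 among them, so its counts are uncertain.

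Against VEC-like cells, the response of ASC1-like cells was greater by 1.69 for H2-Q6, 2.44 for H2-Q7 and 0.77 for Tap1. The first 2 passed in all 13 alternatives, and Tap1 missed the threshold in 7 of the 13 (0.66 to 0.93, edgeR or DESeq2 adjusted p up to 0.40). Against mural-like cells, that of H2-Q7 differed by -1.72, and it missed the threshold in 4 of 13 alternatives (-3.86 to -0.74, adjusted p up to 0.55). Few UMIs underlie the RT level of H2-Q7 in mural-like cells. The RT level of H2-Q7 was 201 ± 2.79 CPM in ASC1-like cells and 17.3 ± 4.86 CPM in ASC2-like cells (SD, n = 2 libraries), so the same log2 step stands for unlike numbers of transcripts.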

How the results depend on the processing

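Set against the alternatives, 191 counts of calls stayed within 1.5 times of the reported one, 34 were larger and 38 smaller. Without the filter on low counts, edgeR called 5 members in ASC1-like, 7 in ASC2-like, 2 in ASC3-like and 2 in VEC-like cells after cold, where 13.4%, 2.73%, 1.41% and 2.5% of all genes were called, and 1 in ASC2-like, 1 in ASC3-like and 2 in VEC-like cells after CL, where 1.5%, 0.847% and 1.31% were. The same setting called 5 Lin+ pairs after CL (2.82% of all), 10 Lin- pairs between cold and CL (1.5%), 5 Lin- and 4 Lin+ pairs between genotypes (0.7% and 0.382%), and differences between ASC1-like cells and ASC2-like (5, with 7.19% of all genes), ASC3-like (2, with 5.7%) and mural-like cells (3, with 5.65%). In mural-like cells after cold the count was 1 with DESeq2's size factors, with DESeq2, at resolution 0.6 and without cells carrying an immune marker, and 0 without the top doublet scores. In ASC2-like cells after cold it was 1 with thinned sums and 1 without shared barcodes, an alternative chosen after seeing the data. DESeq2 called 2 Lin- pairs between cold and CL, 6 differences from ASC2-like cells and 0 from mural-like cells. Resolution 0.6 gave 5 differences from ASC2-like cells, and leaving out the top doublet scores gave 0 from mural-like cells. For KO against WT over the Lin- classes, DESeq2, the doublet alternative, resolution 0.6 and the fit over 10 libraries each gave 0. The causes were not tested. For the alternatives of this paragraph other than that without the filter, the share of all genes called is not given, so their counts cannot be set against it.

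With the C57 replicate number as a block, 1 member was called in ASC3-like cells after cold and 3 Lin- pairs between cold and CL. B2m in MAC-like cells (0.72) lost its call with the block and H2-Q6 in ASC1-like cells (1.10) gained one; the other member calls it gained stand beside the results, and it changed no other member call. For genotype, temperature pairs the libraries and was a term of the reported fit, and no replicate number is shared by more than 1 library of a genotype and temperature.

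With 1 library left out in turn, counts after cold ran from 0 to 3 in ASC1-like, 0 to 4 in ASC2-like and 0 to 5 in mural-like cells and from 2 to 11 over the Lin+ pairs (10 without CL replicate 1, 11 without CL replicate 2). After CL they ran from 0 to 1 in ASC2-like, 0 to 1 in ASC3-like and 0 to 3 in mural-like cells and from 0 to 4 over the Lin+ pairs. Between cold and CL the Lin- count ran from 0 to 1. Differences from ASC2-like cells ran from 3 to 6, from ASC3-like cells 0 to 2, from VEC-like cells 2 to 5 (5 without CL replicate 1 or CL replicate 2) and from mural-like cells 0 to 3. The genotype count was 0 in each case, in the fit over 10 libraries, since 3 libraries leave no residual degree of freedom. In ASC1-like cells after cold, H2-D1 changed sign without RT replicate 2 (-0.30, the lowest of a range up to 0.95) or COLD replicate 2 (-0.0030), H2-Q4 without RT replicate 1 (0.32, the highest of a range down to -0.81), and Tap2 without the filter (0.000515), without RT replicate 1 (0.22, in a range from -0.26), without immune-marker cells (0.0013) and with thinned sums (0.14), none of them called. The share of all genes called in each fit with 1 library left out is not given. Counts of calls in those fits, here and in the sections above, therefore cannot be set against it. Low counts limited Nlrc5, which was filtered out in ASC3-like and mural-like cells, and H2-Q7 in mural-like cells at RT.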
